A study of Mus musculus with 8 samples.

Results

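The genes described here are Atf4, which encodes a stress-responsive transcription factor, and 9 genes widely used as its targets, most of them for amino acid import and synthesis: Trib3, Chac1, Cth, Asns, Phgdh, Psat1, Mthfd2, Slc7a5 and Slc3a2. They were chosen by name, as 10 of the 18194 genes that have a probe set with a single gene symbol in the array's annotation. Together they had 19 such probe sets, of which 18 were bright enough to test. Expression was measured in mouse embryonic stem (ES) cells on 8 Affymetrix GeneChip 430 2.0 arrays, 2 for each of 4 groups. The groups were Rbp2-/- cells kept for 6 days without leukemia inhibitory factor (LIF), Rbp2f/f cells kept without LIF for the same 6 days, Rbp2-/- cells with LIF and Rbp2f/f cells with LIF. LIF is the cytokine that holds mouse ES cells in the undifferentiated state. RBP2, taken here to stand for retinoblastoma-binding protein 2, removes methyl groups from lysine 4 of histone H3 and is the product of Kdm5a. Rbp2f/f cells carry loxP-flanked alleles of it and Rbp2-/- cells carry deleted alleles, and the labels name no other allele or agent. The labels call the 2 samples of a group biological replicates but give neither the number of clones behind a genotype nor the use of feeder cells, so p-values measure only the spread between these samples.

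ATF4 is a basic leucine zipper factor whose messenger RNA is translated more efficiently when the initiation factor eIF2 is phosphorylated, as happens when amino acids run short or unfolded protein accumulates in the endoplasmic reticulum. Its protein level is therefore not read from its transcript. Together with C/EBP family partners it binds composite promoter elements and activates genes that import amino acids, make serine, glycine and asparagine, charge transfer RNAs and handle cysteine. Proliferating ES cells draw on serine and one-carbon metabolism for nucleotides and methyl groups.

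The promoter sequences below are given because they hold the short form of the composite element, TGATGNAA, on either strand, where N is any base. RefSeq promoter windows of assembly GRCm38.p6, from 250 bases before to 50 bases after a transcript's start, were found for 8 of the 10 genes. The element was present in 3 of these 8 genes, Chac1, Trib3 and Asns, beside 1219 of all 27025 genes with a window. By window it was present in 3 of 9, beside 3.97% of all 32851 windows of that length. The windows of Atf4, Phgdh, Psat1, Mthfd2 and Slc3a2 did not hold these letters. Cth and Slc7a5 had no window in the table. Each stretch reads 5′ to 3′ on the strand of its gene, with the match in capitals.
Chac1, chr2:119351029-119351128, plus strand: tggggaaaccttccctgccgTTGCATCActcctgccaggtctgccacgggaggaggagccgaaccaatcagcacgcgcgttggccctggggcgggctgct
Asns, chr6:7693210-7693309, minus strand: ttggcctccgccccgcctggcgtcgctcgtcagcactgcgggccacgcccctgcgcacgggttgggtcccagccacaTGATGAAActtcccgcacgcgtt
Trib3, chr2:152344028-152344057, minus strand: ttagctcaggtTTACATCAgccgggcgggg
In Chac1 and Trib3 the element lies on the strand opposite to the gene, where it reads TGATGCAA and TGATGTAA. Counted from the transcript's start, the first printed base of the match is at -193 in Chac1, at -23 in Asns and at 15 in Trib3. A match is a description of sequence, not a measured binding site.

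The arrays differed in technical level. Before normalization the trimmed mean intensity was lowest, at 77.5, on replicate 2 of Rbp2-/- with LIF, against 110.5 to 128.4 on the other 7 arrays, so all arrays were quantile normalized. Replicate 1 of Rbp2f/f with LIF had a 3′ to 5′ signal ratio of 1.11 for the Gapdh control, against 0.782 to 0.850 on the others, and its group had the highest 18S ribosomal signal (384 and 357, against 45.6 to 191). Kdm5a, as a check of the labels, gave 95 and 66.8 without LIF in Rbp2-/-, against 210 and 225 in Rbp2f/f. With LIF its values were 34.1 and 43.5 in Rbp2-/-, against 134 and 168 in Rbp2f/f. It was lower in Rbp2-/- on every array of both media, by a log2 difference of -1.60 with LIF (adjusted p = 0.0707, limma) and -1.28 without LIF (adjusted p = 0.114). Where this probe set lies relative to the deleted part is not given. Summed over 10 undifferentiated ES cell markers, the normalized intensity without LIF was 2031 and 2903 in Rbp2-/-, against 2578 and 2757 in Rbp2f/f. With LIF the sum was 14977 and 11297 in Rbp2-/-, against 13559 and 15613 in Rbp2f/f. Withdrawal of LIF lowered 9 of these 10 markers and raised 1 in each genotype. In RNA from whole cultures, fewer cells of a type and less RNA per cell cannot be told apart.

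Withdrawal of LIF lowered several of the amino acid genes in both genotypes. In Rbp2-/- cells, 4 of the 10 genes fell, Cth, Slc7a5, Trib3 and Slc3a2, where 8.24% of all 10916 tested genes were called lower. In Rbp2f/f cells 7 of the 10 fell, Slc7a5, Cth, Mthfd2, Trib3, Psat1, Slc3a2 and Chac1, where 13.2% of tested genes were called lower. None was called higher in either genotype, where 7.28% (Rbp2-/-) and 14.0% (Rbp2f/f) of tested genes were. The median log2 difference of the 10 genes was -0.55 in Rbp2-/- and -1.66 in Rbp2f/f, beside 0.00 and -0.02 over all tested genes. In Rbp2f/f that median was -0.95 with replicate 2 of Rbp2f/f with LIF left out and -2.21 with replicate 1 left out. In Rbp2-/- it was -0.17 on the values as deposited, where the median over all genes was 0.38. All differences are on the scale of log2(normalized intensity + 16), which understates the change of dim genes. Calls were made with limma at a Benjamini-Hochberg adjusted p under 0.05 over the 10916 genes. The 2 genotypes were not shown to differ in their response: the interaction was positive for 9 of the 10 genes, with a median of 0.74, but called 0 of them and 0.00% of all genes. Its median was 0.33 with replicate 2 of Rbp2f/f with LIF left out, and 1.13 on the values as deposited, where that over all genes was 0.31.

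**Figure D1:**
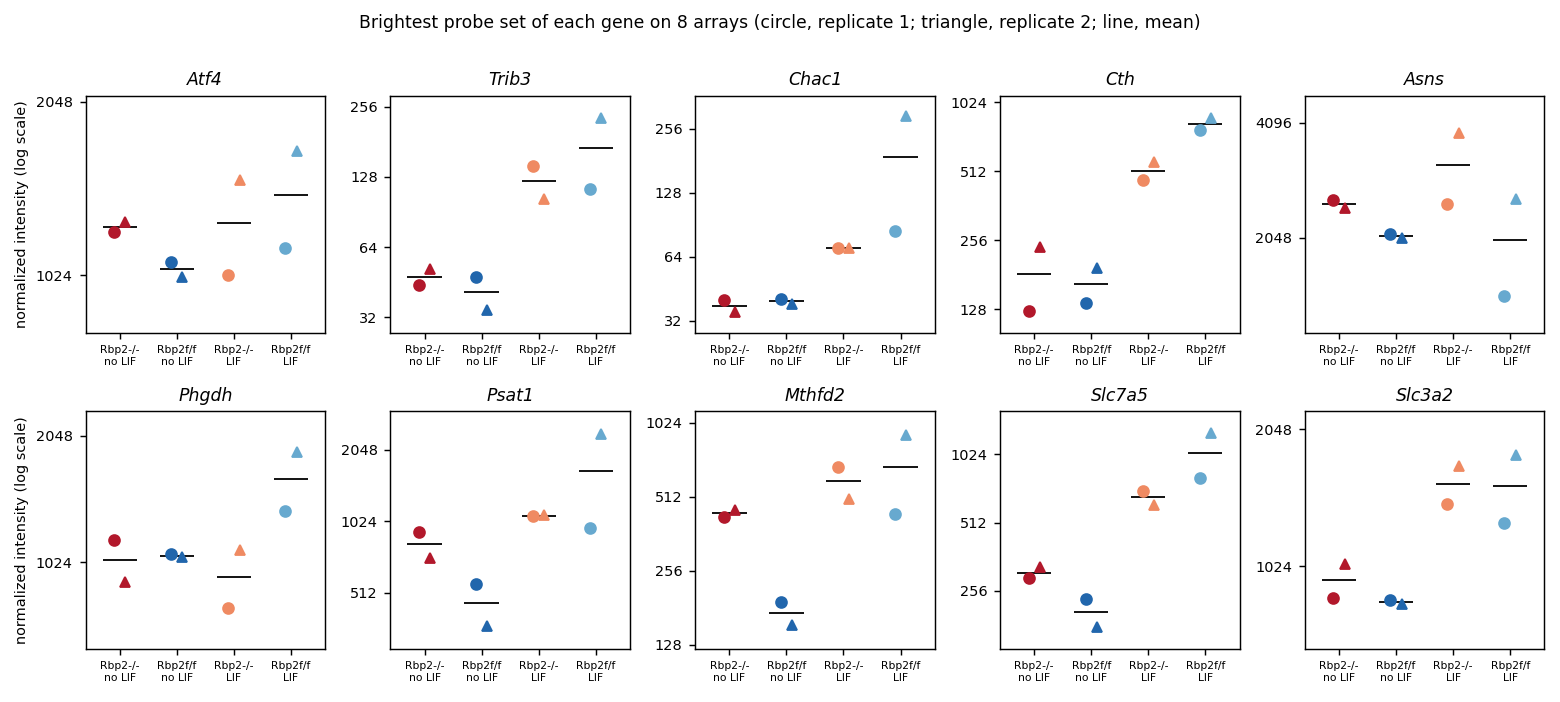
Normalized intensity (log axis) of each gene's brightest probe set on each of the 8 arrays, by group, with a circle for replicate 1, a triangle for replicate 2 and a line at the mean. Cth, Trib3, Chac1, Psat1, Mthfd2, Slc7a5 and Slc3a2 sit lower on every array without LIF than on any array with LIF of the same genotype. The 2 arrays of Rbp2f/f with LIF are far apart for Chac1 (84.9 and 294).

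Atf4 itself (chr15:80255184-80257545) gave different answers from its probe sets. The brighter, 1448135_at, read 1216 and 1269 in Rbp2-/- without LIF, against 1081 and 1017 in Rbp2f/f without LIF, and with LIF 1024 and 1500 in Rbp2-/-, against 1140 and 1679 in Rbp2f/f. The groups with LIF spanned most of the whole range, and the arrays of Rbp2-/- without LIF lay inside the range of their counterparts with LIF. Its withdrawal difference was 0.00 ± 0.22 (SE) in Rbp2-/- (limma adjusted p = 0.995) and -0.40 ± 0.22 in Rbp2f/f (adjusted p = 0.218). In Rbp2f/f the gene was called lower in 1 of 20 alternative settings of the processing. The probe set 1438992_x_at read 475 and 600 in Rbp2-/- without LIF, against 505 and 477 in Rbp2f/f without LIF, and with LIF 568 and 700 in Rbp2-/-, against 1185 and 1056 in Rbp2f/f. On this probe set both arrays of Rbp2f/f with LIF stood above all 6 others. In a fit of all 18228 tested probe sets, it fell by 1.16 ± 0.19 on withdrawal in Rbp2f/f (limma adjusted p = 0.00428), against -0.23 ± 0.19 in Rbp2-/- (adjusted p = 0.456). With LIF it differed by -0.81 ± 0.19 between Rbp2-/- and Rbp2f/f, with an adjusted p of 0.184. The third probe set, 1439258_at, read 2.29 or less on every array and was not tested.

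The genes that act downstream of ATF4 as feedback and as enzymes of glutathione and cysteine had low arrays without LIF in both genotypes. Trib3 (chr2:152337425-152344060) encodes a pseudokinase that restrains ATF4 activity. It read 44.1 and 51.5 in Rbp2-/- without LIF, against 47.7 and 34.3 in Rbp2f/f without LIF, and with LIF 143 and 103 in Rbp2-/-, against 113 and 229 in Rbp2f/f. On this brightest probe set the 4 arrays without LIF were all below the 4 with LIF, and genotypes overlapped within each medium. Trib3 fell by 1.11 ± 0.31 on withdrawal in Rbp2-/- (limma adjusted p = 0.039) and fell by 1.65 ± 0.31 in Rbp2f/f (adjusted p = 0.00556). Its other probe set, 1456225_x_at, fell by 1.17 ± 0.24 and fell by 1.70 ± 0.24 in the same genotypes (adjusted p = 0.0152 and 0.00244 in the fit of all probe sets). With LIF that probe set read 135 and 99.9 in Rbp2-/-, against 187 and 159 in Rbp2f/f, so there the genotypes did not overlap. Its genotype difference with LIF was not called (limma adjusted p = 0.407).

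Chac1 (chr2:119351242-119354326) encodes an enzyme that cleaves glutathione. It read 40.3 and 35.2 in Rbp2-/- without LIF, against 40.7 and 38.4 in Rbp2f/f without LIF, and with LIF 70.8 and 70.2 in Rbp2-/-, against 84.9 and 294 in Rbp2f/f. The 2 genotypes overlapped without LIF, and with LIF both arrays of Rbp2-/- were below both of Rbp2f/f. Its withdrawal difference was -0.69 ± 0.42 in Rbp2-/- (limma adjusted p = 0.3), which was not called, and it fell by 1.67 ± 0.42 in Rbp2f/f (adjusted p = 0.0182). The size in Rbp2f/f rested on 1 array: without replicate 2 of Rbp2f/f with LIF the difference was -0.86, still called.

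Cth (chr3:157894248-157925081) encodes cystathionine gamma-lyase, which releases cysteine in the last step of transsulfuration. It read 127 and 239 in Rbp2-/- without LIF, against 137 and 195 in Rbp2f/f without LIF, and with LIF 467 and 564 in Rbp2-/-, against 776 and 874 in Rbp2f/f. With LIF the genotypes did not overlap, Rbp2-/- being lower, while without LIF the arrays of Rbp2-/- lay to either side of those of Rbp2f/f. Cth fell on withdrawal by 1.47 ± 0.28 in Rbp2-/- (limma adjusted p = 0.00914) and fell by 2.23 ± 0.28 in Rbp2f/f (adjusted p = 0.00107). The genotype difference with LIF was -0.67 ± 0.28, with an adjusted p of 0.36.

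**Figure D2:**
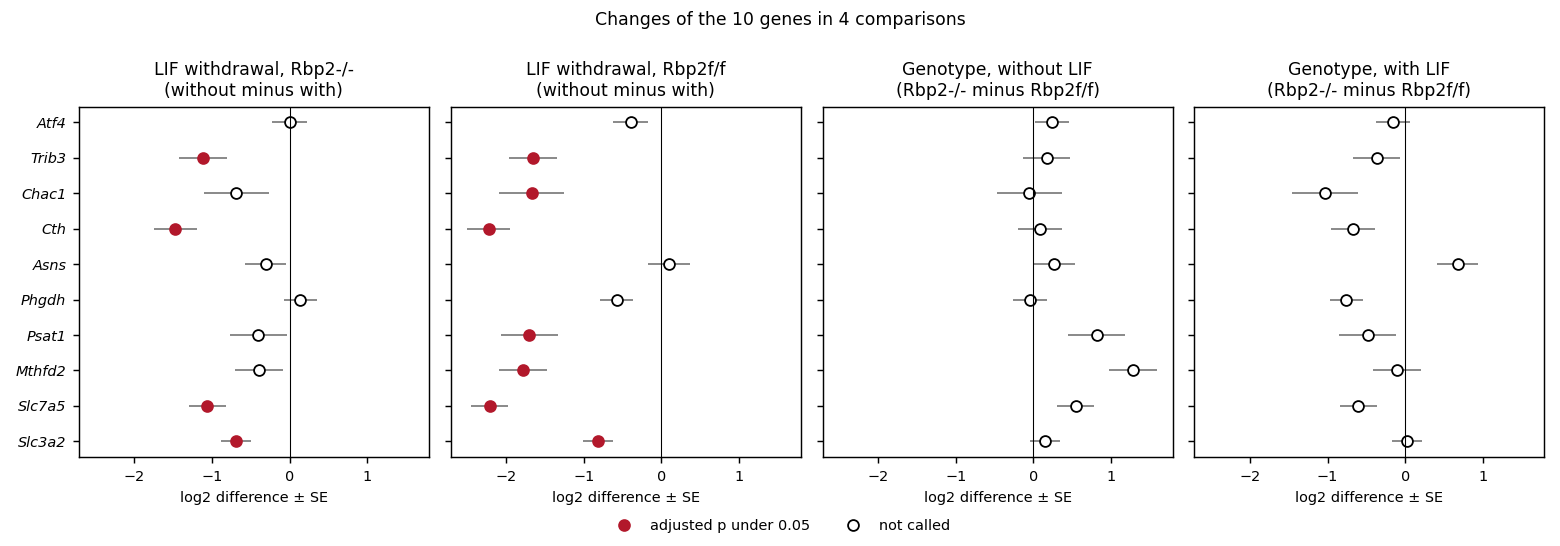
Log2 difference (points) with its standard error (bars) for each of the 10 genes in LIF withdrawal by genotype and the genotype effect by medium. Filled points have an adjusted p under 0.05. Withdrawal differences of Cth and Slc7a5 lie left of 0 in both genotypes, at -1.47 and -1.06 in Rbp2-/- and at -2.23 and -2.22 in Rbp2f/f.

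Asns (chr6:7675165-7693209), asparagine synthetase, was not called on withdrawal in either genotype. Its brighter probe set read 2569 and 2450 in Rbp2-/- without LIF, against 2094 and 2053 in Rbp2f/f without LIF, and with LIF 2505 and 3858 in Rbp2-/-, against 1447 and 2591 in Rbp2f/f. Within each genotype at least 1 array without LIF lay above an array with LIF, so the media overlapped. The withdrawal difference was -0.31 ± 0.27 in Rbp2-/- (limma adjusted p = 0.474) and 0.10 ± 0.27 in Rbp2f/f (adjusted p = 0.819). The probe set 1433966_x_at gave -0.28 ± 0.24 and -0.23 ± 0.24, neither called. The value of 3858 came from the array that was dim before normalization, where the deposited intensity was 2859. With LIF, Asns differed by 0.68 ± 0.27 between Rbp2-/- and Rbp2f/f (adjusted p = 0.333), by 0.37 with the dim array left out, and by 0.26 and 1.10 with replicate 1 and replicate 2 of Rbp2f/f with LIF left out.

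Phgdh and Psat1 catalyse the first and the second step from the glycolytic intermediate 3-phosphoglycerate to serine. Phgdh (chr3:98313171-98339969) read 1156 and 918 in Rbp2-/- without LIF, against 1070 and 1053 in Rbp2f/f without LIF, and with LIF 798 and 1094 in Rbp2-/-, against 1356 and 1870 in Rbp2f/f. On this brightest probe set both arrays of Rbp2f/f with LIF were the highest of the 8, and the other groups overlapped. On 1426658_x_at, however, replicate 1 of Rbp2f/f with LIF read only 864, level with replicate 1 of Rbp2-/- with LIF. Its withdrawal difference was 0.14 ± 0.21 in Rbp2-/- (limma adjusted p = 0.707) and -0.58 ± 0.21 in Rbp2f/f (adjusted p = 0.072). In Rbp2f/f the gene was called lower in 4 of 20 alternative settings of the processing. With LIF the genotype difference was -0.76 ± 0.21 (adjusted p = 0.208). Across its 4 probe sets this genotype difference ran between -0.94 and -0.21, and none was called. The withdrawal difference in Rbp2f/f ran between -0.665 and -0.052 over the same probe sets, and none was called. A further 2 probe sets that the annotation shares between Phgdh and predicted genes were left out.

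Psat1 (chr19:15905123-15925059) read 923 and 717 in Rbp2-/- without LIF, against 556 and 373 in Rbp2f/f without LIF, and with LIF 1079 and 1085 in Rbp2-/-, against 964 and 2382 in Rbp2f/f. Without LIF the Rbp2-/- arrays were both above the Rbp2f/f arrays. Psat1 fell by 1.70 ± 0.36 on withdrawal in Rbp2f/f (limma adjusted p = 0.00959), and fell by 1.05 without replicate 2 of Rbp2f/f with LIF. In Rbp2-/- the difference was -0.40 ± 0.36 (adjusted p = 0.493). Its interaction was 1.30 ± 0.52 with an adjusted p of 0.427. The probe set 1454607_s_at differed by -0.61 ± 0.22 in Rbp2-/- and fell by 1.93 ± 0.22 in Rbp2f/f (adjusted p = 0.106 and 0.00108). With LIF it read 746 and 724 in Rbp2-/-, below 1123 and 1594 in Rbp2f/f. That genotype difference was -0.85 ± 0.22 and was not called (limma adjusted p = 0.209).

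Mthfd2 (chr6:83305704-83326011) encodes a mitochondrial enzyme of the folate pathway that carries the one-carbon unit taken from serine. It read 426 and 454 in Rbp2-/- without LIF, against 191 and 154 in Rbp2f/f without LIF, and with LIF 680 and 502 in Rbp2-/-, against 437 and 912 in Rbp2f/f. Rbp2f/f without LIF held the lowest 2 arrays. On the brightest probe sets, its genotype difference without LIF was the largest of the 10 genes, at 1.28 ± 0.31, yet the limma adjusted p was 0.152. Mthfd2 fell by 1.79 ± 0.31 on withdrawal in Rbp2f/f (adjusted p = 0.00418), against -0.40 ± 0.31 in Rbp2-/- (adjusted p = 0.418). Its interaction of 1.39 ± 0.44 was not called (adjusted p = 0.387). The other probe set, 1419253_at, fell by 1.78 ± 0.33 in Rbp2f/f (adjusted p = 0.00746) and gave -0.66 ± 0.33 in Rbp2-/- (adjusted p = 0.231). Its genotype difference without LIF was smaller, at 0.775 ± 0.33 (limma adjusted p = 0.384).

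Slc7a5 and Slc3a2 encode the light and heavy chains of the LAT1 transporter, which brings in leucine and other large neutral amino acids. Slc7a5 (chr8:121881146-121907686) read 291 and 324 in Rbp2-/- without LIF, against 236 and 178 in Rbp2f/f without LIF, and with LIF 709 and 613 in Rbp2-/-, against 805 and 1267 in Rbp2f/f. All 4 groups were separate, Rbp2-/- lying above Rbp2f/f without LIF and below it with LIF. Slc7a5 fell by 1.06 ± 0.24 on withdrawal in Rbp2-/- (limma adjusted p = 0.0175) and fell by 2.22 ± 0.24 in Rbp2f/f (adjusted p = 0.000543).

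Slc3a2 (chr19:8706882-8723369) read 875 and 1037 in Rbp2-/- without LIF, against 862 and 845 in Rbp2f/f without LIF, and with LIF 1401 and 1699 in Rbp2-/-, against 1278 and 1794 in Rbp2f/f. Every array without LIF was below every array with LIF, and with LIF the genotypes overlapped. The heavy chain fell by 0.69 ± 0.19 in Rbp2-/- (limma adjusted p = 0.0416) and fell by 0.82 ± 0.19 in Rbp2f/f (adjusted p = 0.0143).

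Several of these calls depended on single arrays. In Rbp2f/f, Slc7a5, Cth and Mthfd2 were called lower whichever array was left out. The count of 7 dropped to 3 without replicate 2 of Rbp2f/f without LIF, where Trib3, Psat1, Slc3a2 and Chac1 had adjusted p from 0.0537 to 0.1. Slc3a2 and Chac1 were also lost without replicate 1 of that group (adjusted p = 0.0665 and 0.0729), and Slc3a2 when replicate 2 of Rbp2f/f with LIF was left out (0.0764). Phgdh joined the calls when either array of Rbp2-/- with LIF was left out (0.0466). In Rbp2-/-, the count of 4 became 0 without replicate 1 of Rbp2-/- without LIF, where Cth had an adjusted p of 0.0632. It became 1 when replicate 2 of Rbp2-/- without LIF or replicate 1 of Rbp2-/- with LIF was left out, 2 when either array of Rbp2f/f without LIF was, and 3 when replicate 2 of Rbp2-/- with LIF was. Leaving out either array of Rbp2f/f with LIF gave 5, Chac1 being the gene added. On the values as deposited, with no normalization by this work, it was 1 (Cth). Directions of the called falls held throughout. Arrays without LIF were all below those with LIF for 7 of the 10 genes in Rbp2-/- (29.8% of tested genes) and for 9 of the 10 in Rbp2f/f (35.3%).

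**Figure D3:**
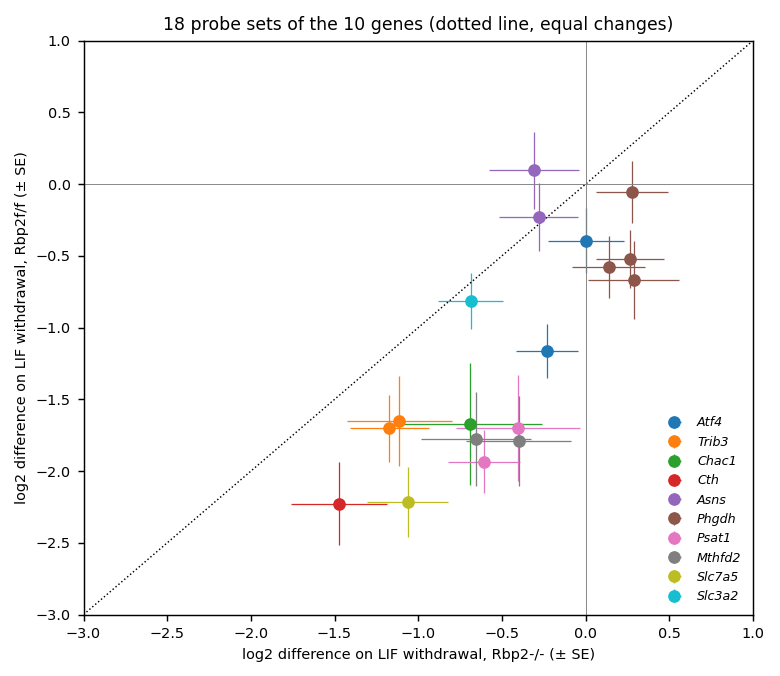
Log2 difference on LIF withdrawal in Rbp2-/- (horizontal axis) and in Rbp2f/f (vertical axis), with standard errors as bars, for each of the 18 tested probe sets of the 10 genes. All but the 2 Asns probe sets lie below the dotted line of equal change. The probe sets of Atf4 differ most in Rbp2f/f, at -1.16 and -0.40.

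Over single probe sets, 3 of 18 were called lower on withdrawal in Rbp2-/-, where 5.95% of all tested probe sets were, and 11 of 18 in Rbp2f/f, where 10.9% were. The 3 in Rbp2-/- were the Trib3 probe set 1456225_x_at and those of Cth and Slc7a5.

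None of the 10 genes was called for a difference between Rbp2-/- and Rbp2f/f. With LIF, 0 of 10 passed in limma, as were 0.00% of all tested genes. At an unadjusted p under 0.05, 4 of 10 had lower values in Rbp2-/- (Chac1, Phgdh, Cth and Slc7a5, beside 6.69% of all genes) and 1 had higher values (Asns, beside 6.42%). The median of the 10 genes was -0.43, beside -0.01 over all genes, and its sign rested on 1 array. It was 0.11 with replicate 2 of Rbp2f/f with LIF left out, -0.79 with replicate 1 of that group left out, and -0.73 on the values as deposited, where the median over all genes was -0.28. Both Rbp2-/- arrays were below both Rbp2f/f arrays for 4 of the 10 (Chac1, Cth, Phgdh and Slc7a5), as for 21.5% of all genes.

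Without LIF the values leaned the other way. Again 0 of 10 genes and 0.00% of all genes were called, and 2 of 10, Mthfd2 and Slc7a5, had higher values in Rbp2-/- at an unadjusted p under 0.05, beside 5.90% of all genes. The median of the 10 genes was 0.21, and both Rbp2-/- arrays were above both Rbp2f/f arrays for 6 of them (26.1% of all genes). Averaged over both media, 0 of the 10 genes were called (adjusted p from 0.228 to 0.958), against 15 of 10916 genes, or 0.137%, and 3 of 10 had an unadjusted p under 0.05, beside 16.7% of all genes. The interaction was positive at an unadjusted p under 0.05 for Slc7a5, Mthfd2, Psat1 and Phgdh, 4 of 10 genes, beside 4.90% of all genes. The genotype effects and the interaction reuse the same 8 arrays as the withdrawal effects and are not separate evidence.

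The replicates of Rbp2f/f with LIF were unlike each other in these genes. On their brightest probe sets all 10 were higher in replicate 2 than in replicate 1. The median log2 difference was 0.74, with a range from 0.17 for Cth to 1.62 for Chac1. Over all tested genes the median was -0.05, and 5 of the 10 genes exceeded the 95th percentile of 0.68. The Atf4 probe set 1438992_x_at (1185 in replicate 1 and 1056 in replicate 2) and the Trib3 probe set 1456225_x_at (187 and 159) were lower in replicate 2. The remaining tested probe sets of the 10 genes were higher in it. In the other groups replicate 2 was higher for 6 of 10 genes (Rbp2-/- without LIF, median 0.08), 1 of 10 (Rbp2f/f without LIF, median -0.07) and 6 of 10 (Rbp2-/- with LIF, median 0.14). Of all tested genes, 45% were higher in replicate 2 of Rbp2f/f with LIF. Related lists were mixed there. Higher in replicate 2 were 15 of 18 cytosolic aminoacyl-tRNA synthetases (median 0.25), 13 of 17 other ATF4 target and stress genes (0.24) and 11 of 15 amino acid transporters (0.27). So were 5 of 7 genes of eIF2 phosphorylation (0.25) and 6 of 9 proline, asparagine and glutamine enzymes (0.167). The lean was smaller or absent for 8 of 13 serine, glycine and one-carbon enzymes (0.047) and 10 of 18 chaperone and other unfolded protein response genes (0.045). For transsulfuration and glutathione genes it was 5 of 10 (-0.125). In Rbp2-/- with LIF, 14 of 17 other ATF4 target and stress genes were also higher in replicate 2. Replicate 1 of Rbp2f/f with LIF was the array with the high Gapdh ratio. The summed intensity of 9 early differentiation markers was 3391 in replicate 2 and 6984 in replicate 1. Most of it came from Krt8 (1339 and 3071) and Krt18 (1752 and 3574). Of the 9 markers, Mixl1 and Fgf5 were higher in replicate 2 and the rest were lower. The summed intensity of 10 fibroblast markers was 389 in replicate 2 and 689 in replicate 1. The part of any of these in the difference between the replicates was not tested. Every withdrawal and genotype value of Rbp2f/f with LIF rests on the mean of these 2 arrays.

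**Figure D4:**
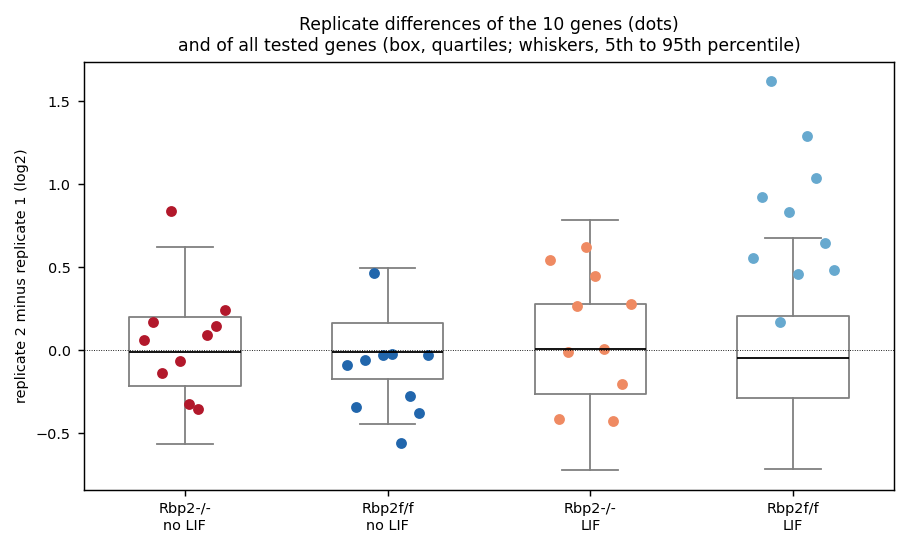
Log2 difference of replicate 2 minus replicate 1 for the 10 genes (points) within each group, with boxes for the quartiles of all tested genes and whiskers to their 5th and 95th percentiles. In Rbp2f/f with LIF all 10 points are above 0, between 0.17 and 1.62.

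Over the 8 arrays, the tested genes whose log2 values followed those of Atf4 most closely were Sfxn1 (Pearson r = 0.95), Ppp1r15b (0.949), Zfp280c (0.949), Hdgfl3 (0.94) and Tmem121 (0.937). Those closest to the mean of the 10 genes, each scaled over arrays, were Msantd2 (0.982), Ubr7 (0.98), Asphd2 (0.972), Akap12 (0.97) and Dip2c (0.96). These values describe 8 arrays that share 4 groups and 2 media, and they were picked as the highest among all tested genes.

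Genes around the pathway were examined as lists, whose counts stand beside 7.28% higher and 8.24% lower among all tested genes in Rbp2-/- and 14.0% higher and 13.2% lower in Rbp2f/f. Among 13 tested serine, glycine and one-carbon enzymes other than the 10 genes, withdrawal lowered 4 in Rbp2-/- and 8 in Rbp2f/f and raised none. Gldc, of the glycine cleavage system, fell by 1.47 ± 0.20 in Rbp2-/- (limma adjusted p = 0.00181) and fell by 1.30 ± 0.20 in Rbp2f/f (adjusted p = 0.00265). Mthfd1, the trifunctional cytosolic folate enzyme, fell by 1.21 ± 0.18 in Rbp2-/- and fell by 1.14 ± 0.18 in Rbp2f/f. Shmt1, which splits serine into glycine and a one-carbon unit, fell by 1.34 ± 0.23 and fell by 1.39 ± 0.23 in the same genotypes. The count in Rbp2f/f was 4 on the values as deposited or with replicate 2 of Rbp2f/f with LIF left out. Leaving out replicate 1 or replicate 2 of the Rbp2f/f cultures kept without LIF gave 5 and 3.

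Of 10 transsulfuration and glutathione genes, the neighbours of Cth and Chac1, 5 fell in Rbp2-/- and 7 in Rbp2f/f. Cbs, the enzyme upstream of Cth, read 29.2 and 34.6 in Rbp2-/- without LIF, against 39.3 and 47.1 in Rbp2f/f without LIF, and with LIF 169 and 131 in Rbp2-/-, against 138 and 143 in Rbp2f/f. It fell by 1.79 ± 0.21 in Rbp2-/- (limma adjusted p = 0.000842) and fell by 1.40 ± 0.21 in Rbp2f/f (adjusted p = 0.00204), and the media did not overlap in either genotype. Ggct, gamma-glutamylcyclotransferase, which acts on gamma-glutamyl peptides, fell by 1.94 ± 0.32 in Rbp2-/- and fell by 2.45 ± 0.32 in Rbp2f/f. Gpx4, a glutathione peroxidase that reduces lipid peroxides, was the gene of the list with the smallest p in Rbp2-/-, where it fell by 1.29 ± 0.14. Gclc, a subunit of the enzyme that starts glutathione synthesis, fell by 1.39 ± 0.21 in Rbp2f/f. On the values as deposited the count in Rbp2-/- was 3 of 10. In Rbp2f/f it was 3 without replicate 2 of Rbp2f/f without LIF.

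The cytosolic aminoacyl-tRNA synthetases, many of them ATF4 targets, gave 1 fall among 18 in Rbp2-/- and 9 in Rbp2f/f. Farsb fell by 0.80 ± 0.16 in Rbp2-/- (limma adjusted p = 0.0101) and fell by 0.90 ± 0.16 in Rbp2f/f (adjusted p = 0.00448). Tars fell by 1.05 ± 0.17 and Lars by 0.86 ± 0.15 in Rbp2f/f. The list's median was -0.01 in Rbp2-/- and -0.57 in Rbp2f/f, and its interaction called 0 of 18. The 9 became 4 on the values as deposited. Leaving out replicate 2 of Rbp2f/f with LIF gave 3, and leaving out replicate 1 of that group gave 12. Without replicate 2 of Rbp2f/f without LIF it was 2, and without replicate 1 of that group it was 6.

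**Figure D5:**
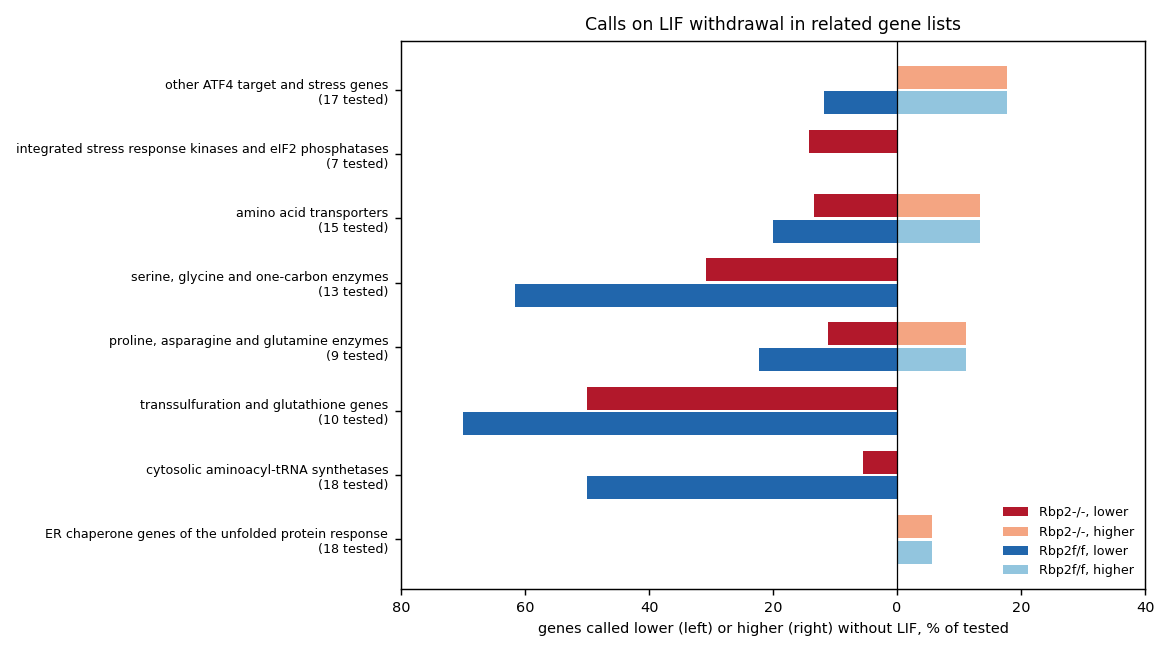
Share of the tested genes of 8 related lists (horizontal axis, %) called lower (left of 0) or higher (right of 0) on LIF withdrawal, in Rbp2-/- and Rbp2f/f. The longest bars are the lower calls of transsulfuration and glutathione genes (5 and 7 of 10), of serine, glycine and one-carbon enzymes (4 and 8 of 13) and, in Rbp2f/f, of the synthetases (9 of 18, against 1 of 18 in Rbp2-/-).

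Among 17 other ATF4 target and stress genes, withdrawal raised 3 and lowered 0 in Rbp2-/- and raised 3 and lowered 2 in Rbp2f/f. In Rbp2f/f these shares were near those of all tested genes, 14.0% higher and 13.2% lower. Vldlr, a lipoprotein receptor, rose by 1.50 ± 0.27 in Rbp2-/- (limma adjusted p = 0.00667) and by 0.96 ± 0.27 in Rbp2f/f (adjusted p = 0.027). Ddit4, an inhibitor of mTORC1 signalling, rose by 1.16 ± 0.26 and by 0.96 ± 0.26 in the same genotypes. Cebpb, a partner of ATF4, rose by 0.84 ± 0.24 in Rbp2-/-. In Rbp2f/f, Eif4ebp1, a repressor of cap-dependent translation, fell by 0.89 ± 0.15, and Gpt2, a mitochondrial alanine aminotransferase, fell by 1.22 ± 0.27.

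Of the 7 tested genes that control eIF2 phosphorylation, only Ppp1r15a was called, and only in Rbp2-/-, where this stress-induced phosphatase subunit fell by 0.94 ± 0.21 (limma adjusted p = 0.0187). In Rbp2f/f its difference was -0.48 ± 0.21 (adjusted p = 0.127), and the interaction called none of the 7. The kinases Eif2ak1, Eif2ak2, Eif2ak3 and Eif2ak4, the constitutive subunit Ppp1r15b and the Gcn2 inhibitor Impact had adjusted p from 0.134 to 0.993 in Rbp2-/- and from 0.12 to 0.892 in Rbp2f/f. Of 18 chaperone and other genes of the unfolded protein response, 1 was called in each genotype. This was Edem1, which helps clear misfolded glycoproteins, and it rose by 0.86 ± 0.17 in Rbp2-/- and by 0.82 ± 0.17 in Rbp2f/f.

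Among 15 amino acid transporters beside LAT1, 2 rose and 2 fell in Rbp2-/- and 2 rose and 3 fell in Rbp2f/f, where 14.0% of all tested genes were called higher and 13.2% lower. Slc7a3, a cationic amino acid transporter, read 100 and 180 in Rbp2-/- without LIF, against 130 and 126 in Rbp2f/f without LIF, and with LIF 1113 and 845 in Rbp2-/-, against 1232 and 1642 in Rbp2f/f. It fell by 2.71 ± 0.27 in Rbp2-/- (limma adjusted p = 0.000367) and fell by 3.32 ± 0.27 in Rbp2f/f (adjusted p = 0.000167). Slc7a7 fell by 2.07 ± 0.32 and fell by 1.95 ± 0.32, and Slc38a4, a neutral amino acid transporter, rose by 1.17 ± 0.15 and by 0.73 ± 0.15 in the same genotypes. Of 9 enzymes of proline, asparagine and glutamine metabolism, Oat rose and Prodh fell in both genotypes, with differences of 0.96 ± 0.22 and -1.38 ± 0.24 in Rbp2-/- and of 1.31 ± 0.22 and -0.97 ± 0.24 in Rbp2f/f. Got1 was the other gene called there, and it fell by 0.88 ± 0.27 in Rbp2f/f. No list had a gene called for the genotype effect in either medium or for the interaction.

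Several genes used as markers of fibroblasts and of early differentiation rose on LIF withdrawal. The summed intensity of 10 fibroblast markers without LIF was 4411 and 1730 in Rbp2-/-, against 1907 and 1788 in Rbp2f/f. With LIF the sum was 1005 and 1148 in Rbp2-/-, against 689 and 389 in Rbp2f/f. None of the 10 was at 0 on every array. Col1a1 alone read 2766 on the array with the sum of 4411. Without LIF, Col1a1 and Cd44 were higher on both Rbp2-/- arrays than on both Rbp2f/f arrays. Col3a1, Lum, Dcn and Fbln5 were lower on both, and the remaining markers overlapped. Lum, Dcn and Fbln5 were too dim to test. In Rbp2-/- 1 of 7 tested fibroblast markers rose and in Rbp2f/f 5 of 7 rose. Of 9 early differentiation markers, 4 rose in Rbp2-/- and 8 in Rbp2f/f. Whether cells of other types were present, and any part of theirs in the changes of the 10 genes, was not tested.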

How the data were processed

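The deposited values are linear intensities, 1 per probe set and array, summarised by the authors with software, background correction and scaling not given in the sources used here. Beyond being linear their scale is unknown. All 45101 probe sets were quantile normalized and transformed here to log2(intensity + 16) from the deposited values. Of them 34958 had 1 gene symbol, 932 several and 9211 none in the platform table, and only the first were used. Each gene was read from its brightest probe set. Genes with a mean normalized intensity of at least 28.3, the 40th percentile, were tested (10916 of 18194).

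Limma 3.58.1 in R 4.3.3 fitted 4 group means over the 8 arrays (lmFit, eBayes with a trend, 4 residual degrees of freedom), with two-sided p-values and, per contrast, Benjamini-Hochberg adjustment over all 10916 tested genes. The procedure was tested on simulated data. Errors are standard errors of the fit. The number of arrays limits the precision. Genes named from a list were among the 3 with the smallest p in a contrast, or came from a list with under 8 tested. Alternatives were other normalization, filters, pseudocounts, variance models, array weights, probe set summary, threshold, a replicate block and each array left out. The members and lists were chosen with earlier results of these data known. Gene positions come from RefSeq, assembly GRCm38.p6.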

Additional observations from a re-analysis of the deposited data

Results flagged for a closer look

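Slc7a5 was picked out because its genotype difference ran in opposite directions in the 2 media. Both Rbp2-/- arrays were above both Rbp2f/f arrays without LIF, and both were below them with LIF. The interaction was 1.15 ± 0.34 on the log2 scale, and in a limma fit over all genes its adjusted p was 0.374.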

How the results depend on the processing

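The fits had 4 residual degrees of freedom, and genes just under a threshold are not shown to be unchanged. In LIF withdrawal in Rbp2-/-, the count of the 10 genes called lower was 1 on the values as deposited, 2 with no filter and 1 at an adjusted p under 0.01, and 0 to 5 with 1 array left out. In Rbp2f/f it was 3 to 8 with 1 array left out. All genes called numbered 1695 in Rbp2-/- (620 at an adjusted p under 0.01, 555 to 1759 with 1 array left out) and 2968 in Rbp2f/f (1235, and 875 to 3352). Probe sets called lower were 3 in Rbp2-/- (1 on the values as deposited, 5 with array weights, 0 at an adjusted p under 0.01, 0 to 6 with 1 array left out) and 11 in Rbp2f/f (6 to 13). For the genotype averaged over media, 15 genes became 59 on the values as deposited, 0 with no filter, with the mean of probe sets or at an adjusted p under 0.01, 2 with no variance trend, and 0 to 40 with 1 array left out. With LIF, 0 became 28 on the values as deposited, 3 with the mean of probe sets and 0 to 24 with 1 array left out. Without LIF, 0 became 3 on the values as deposited, 225 with array weights and 0 to 34 with 1 array left out, and array weights called 1 of the 10 genes, Mthfd2. The interaction called 0 to 1 with 1 array left out. The cause of these moves was not tested.

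The replicate number was tried as a block. Differences between replicates 2 and 1 correlated at 0.252 to 0.273 among Rbp2-/- without LIF, Rbp2f/f without LIF and Rbp2-/- with LIF. Those of Rbp2f/f with LIF correlated with the other groups at -0.068 to -0.001. The labels do not say that the numbers pair samples, and the main fit did not use them. With the block 100 genes were called for the averaged genotype, 3 with LIF, 30 without LIF and 1 for the interaction, while 4 and 7 of the 10 genes stayed the counts called lower on withdrawal.

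Differences that changed sign under some setting numbered 45 of 1188, and none was called before or after. On the values as deposited they were Atf4 -0.11 and Slc3a2 -0.07 averaged over media, Slc3a2 -0.33 with LIF, and Chac1 0.006 and Phgdh 0.000 without LIF. With median scaling they were Slc3a2 -0.01 with LIF, Chac1 0.028 and Phgdh 0.030 without LIF, Atf4 -0.13 on withdrawal in Rbp2-/- and Asns -0.17 on withdrawal in Rbp2f/f. With the mean of probe sets they were Atf4 -0.09 and Psat1 -0.01 averaged over media, Atf4 -0.10 on withdrawal in Rbp2-/- and Asns -0.066 on withdrawal in Rbp2f/f. With 1 array left out, the ranges averaged over media were -0.10 to 0.18 for Atf4, -0.16 to 0.49 for Psat1, -0.03 to 0.21 for Slc3a2, -0.19 to 0.13 for Slc7a5 and -0.33 to 0.13 for Trib3. With LIF they were -0.43 to 0.12 for Atf4, -0.63 to 0.41 for Mthfd2, -1.12 to 0.16 for Psat1, -0.22 to 0.27 for Slc3a2 and -0.83 to 0.094 for Trib3. Without LIF they were -0.12 to 0.018 for Chac1, -0.33 to 0.51 for Cth and -0.21 to 0.12 for Phgdh. For the interaction they were -0.82 to 0.01 for Asns and -0.12 to 0.37 for Slc3a2. On withdrawal they were -0.62 to 0.003 for Asns, -0.27 to 0.28 for Atf4 and -0.084 to 0.36 for Phgdh in Rbp2-/-, and -0.32 to 0.51 for Asns in Rbp2f/f.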
